A study of Marmota monax with 20 samples.

Results

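Kidney and spleen of the same woodchucks (Marmota monax) were compared in 10 RNA-seq libraries, those labelled kidney or spleen from the 5 animals that gave both tissues, out of 20 libraries in the series. The members were defined by their tissue and individual labels and by no measured value, though the choice was made with earlier results of these data known. Each kidney was paired with the spleen of the same individual. The animals were 2 females (F6849 and F9150) and 3 males (M4046, M4075 and M4091), all adult and negative for woodchuck hepatitis virus. Sex was read from the first letter of an animal's name, which the study's methods state outright only for the female F6849, and ages were not given in the sources used here. Polyadenylated RNA was sequenced from whole tissue, and the deposited values are read counts per gene, without normalization, for 30973 genes of the Monax4B annotation. Monax4B holds some genes in several parts on separate scaffolds, and each part is counted under its own identifier.

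The kidney filters blood in its glomeruli, and its tubules recover water, salts, sugars and amino acids through transporters that are each made in their own stretch of the epithelium. The spleen holds B and T lymphocytes, macrophages and red blood cells in a stroma of reticular cells and sinuses, and it clears old red cells from the blood. Immune cells, blood and vessels are also present in kidney, whereas spleen has no tubular epithelium. The identifiers come without gene names and none of them matched the RefSeq gene table of the species, so genes are given by identifier, no function is stated for them, and the tissue labels were not checked against marker genes. In whole tissue, fewer cells of a type cannot be told apart from less RNA per cell.

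The total counts ran from 63682684 to 107167963 in kidney and from 59487004 to 123267969 in spleen, the spleen of F6849 being the deepest library. Counts were scaled to CPM (counts divided by the library size in units of 1e+06) with TMM factors, which correct the library size for its composition, and the factors were alike in both tissues, from 0.976 to 1.01 in kidney and from 0.944 to 1.04 in spleen. CPM is not corrected for gene length, so it compares libraries and not the transcript numbers of different genes. At least 10 counts were found for 19279 to 20323 genes in the kidneys and for 19160 to 19954 in the spleens. No 2 libraries of a tissue were alike within counting noise (chi-square over its degrees of freedom at least 127).

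The first question was how many genes differ between the tissues once each animal serves as its own control. Of 19918 genes that passed edgeR's filter on low counts, 12722 (63.9%) differed at a false discovery rate of 0.05 in edgeR's quasi-likelihood test with the animal as a block. Of these, 6597 (33.1% of those tested) were higher in kidney and 6125 (30.8%) higher in spleen. Over all genes tested the median log2 fold change, kidney minus spleen, was 0.02, and since TMM scaling centres the log ratios, an even split of the calls is in part set by it. A change of more than 2-fold passed its own test (glmTreat, edgeR, same threshold) in 6129 genes (30.8%), 3461 of them higher in kidney and 2668 higher in spleen.

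The animals gave the same direction for most genes. In 13443 genes (67.5% of those tested) the log2 ratio of kidney to spleen had 1 sign in all 5 animals, with 6947 higher in kidney and 6496 higher in spleen. For 10345 genes (51.9%) every library of one tissue lay above every library of the other, 5553 in favour of kidney and 4792 in favour of spleen. Among the called genes, 12321 (96.8%) had the same direction in all 5 animals and 10183 (80.0%) did not overlap. The calls were made from these same libraries, so agreement among the called genes is in part set by the selection. The other 401 called genes had at least 1 animal against the rest, and in 399 of them it was exactly 1 animal. Their median absolute log2 fold change was 0.90, against 1.44 for all called genes, and the SD of their ratio between animals was 0.69 against 0.43. F6849 went against the fit in 132 of these genes, F9150 in 111, M4091 in 99, M4046 in 42 and M4075 in 19. In the opposite case, 1122 genes had the same direction in all 5 animals without passing the test, with a median absolute log2 fold change of 0.34.

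Most differences were moderate and a minority very large. The median absolute log2 fold change over the genes tested was 0.85, the quartiles were 0.37 and 2.00, and the upper 5% of genes exceeded 5.66 (5.63 with genes lacking any count in a tissue at the bound that 3 counts give). Called genes had a median of 1.44 and the 7196 genes that were not called a median of 0.27. A difference of less than 2-fold was called in 4483 genes, 35.2% of all calls. Conversely, 665 genes differed at least 2-fold and 128 at least 4-fold without being called. The latter were mostly low and variable, with a median of 1.02 CPM and an SD of the log2 ratio between animals of 2.35, against 8.33 CPM and 0.90 for the called genes of that size. These genes thus had large mean ratios on which the animals disagreed.

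**Figure D1:**
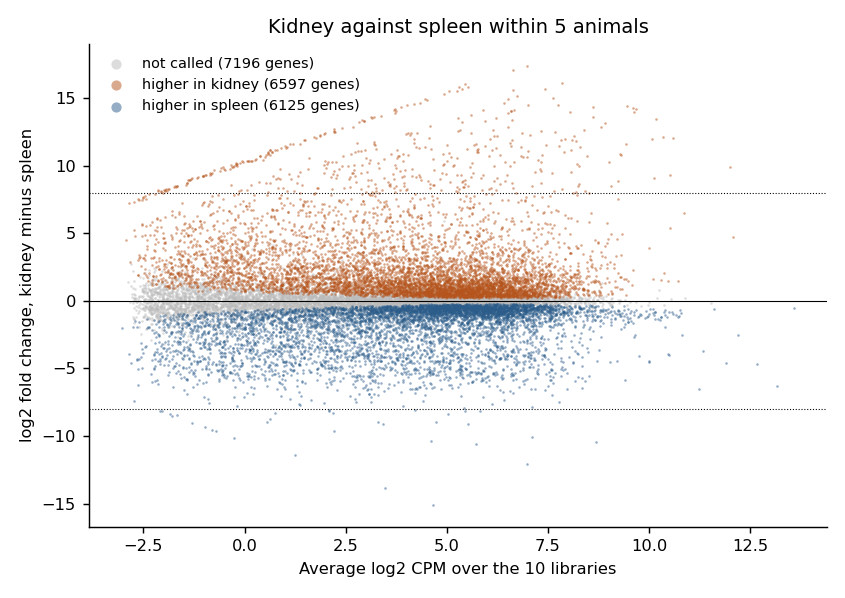
Each point is 1 of the 19918 genes tested; the horizontal axis gives the average log2 CPM over the 10 libraries and the vertical axis the log2 fold change, kidney minus spleen, of the fit with the animal as a block. Dotted lines mark a log2 fold change of 8 in either direction, past which lie 417 called genes on the kidney side and 33 on the spleen side; the straight oblique line of points at the upper left is made of genes with 0 counts in all spleens, whose fitted value depends on the prior count of the fit.

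The directions were nearly even at small effect sizes and uneven at the extreme. Called genes that differed at least 2-fold numbered 4566 in favour of kidney and 3673 in favour of spleen. At 4-fold or more there were 2700 and 2166, and at 16-fold or more 1243 and 929, so that kidney held 55.4% to 57.2% of the called genes at these limits. At a log2 fold change of 8 or more 417 genes were higher in kidney and 33 in spleen, and the share of kidney was 92.7%. Some fitted fold changes rest on a tissue without any count, namely 124 of the 417 and 13 of the 33. With counts under 3 over the 5 libraries of a tissue set to 3, the ratio of the summed counts was still past this limit for 346 and 23 of them.

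The level that remained in the lower tissue was compared at 2 of these limits. Genes called at least 16-fold higher in kidney had a median of 16.2 CPM in kidney and 0.11 CPM in spleen, and 615 of the 1243 (49.5%) had a mean under 0.1 CPM in spleen. Those called at least 16-fold higher in spleen had a similar median in their own tissue, 17.4 CPM, but 0.47 CPM in kidney, and 259 of the 929 (27.9%) had a mean under 0.1 CPM there. At a log2 fold change of 8 or more the directions were alike in this respect, with 77.5% of the kidney genes and 78.8% of the spleen genes under 0.1 CPM in the lower tissue and medians there of 0.0124 and 0.0121 CPM. These are counts of genes, which are not independent replicates, and no test was made of them.

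On/off genes were defined by levels in every library: on as at least 1 CPM in all 5 libraries of a tissue, and off as under 0.1 CPM in all 5 of the other, which allows at most 6 to 11 counts at these depths. By this definition 237 genes were on in kidney and off in spleen, and 16 were on in spleen and off in kidney. Since the definition uses the levels themselves, it carries no test, and that all genes of both sets also passed the paired test (63.9% of all genes tested) adds nothing. The kidney set had a median of 12.2 CPM in kidney, with quartiles of 4.86 and 36.3 CPM and 28 genes at 100 CPM or more. The spleen set was lower, with a median of 5.15 CPM in spleen and a highest mean of 50.8 CPM, and 12 of its 16 genes lay under 10 CPM. No count at all was found in spleen for 60 of the 237 genes.

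The on/off genes were a small part of either tissue's RNA. The 237 kidney genes held 1.08% ± 0.0821 (SD, n = 5) of the counts of a kidney library, from 1.00% in M4046 to 1.20% in F6849. In the spleens the same genes had 224 to 346 counts in all, at most 0.000424% of a library. The 16 spleen genes held 0.0200% ± 0.00655 (SD, n = 5) of the counts of a spleen library, and 17 to 70 counts in a kidney library. Their share was 0.0286% and 0.0249% in the spleens of the 2 females and 0.0130% to 0.0179% in those of the 3 males. Without 1 of the 16 genes, Monax4B035130, the share was 0.0166% and 0.0165% in the females and between 0.0121% and 0.0159% in males. Most of the gap between the female and male spleens thus lay in that gene, and no test was made of the gap. The levels were uneven within both sets, since 17 genes carried 50% of the summed level of the kidney set. The highest library exceeded the lowest by a median of 2.91-fold for the kidney genes and 3.33-fold for the spleen genes.

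The numbers depend on where off is set, and the excess of kidney genes remained at each limit tried after seeing the data. They numbered 337 for kidney and 40 for spleen under 0.2 CPM, 543 and 161 under 0.5 CPM, and 777 and 388 under 1 CPM. The ratio of the numbers thus fell from 14.8 at 0.1 CPM to 2.00 at 1 CPM. When every library was reduced by random draws to the smallest total, there were 231 and 13 genes at the limit of 0.1 CPM, so that the excess was present at equal depth. With an animal left out fewer libraries must meet the limits, so the numbers can only stay or rise. The spleen number rose from 16 to 32 without the animal M4046 and to 26 without F6849. The kidney number rose from 237 to between 249 and 275 with any animal left out.

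**Figure D2:**
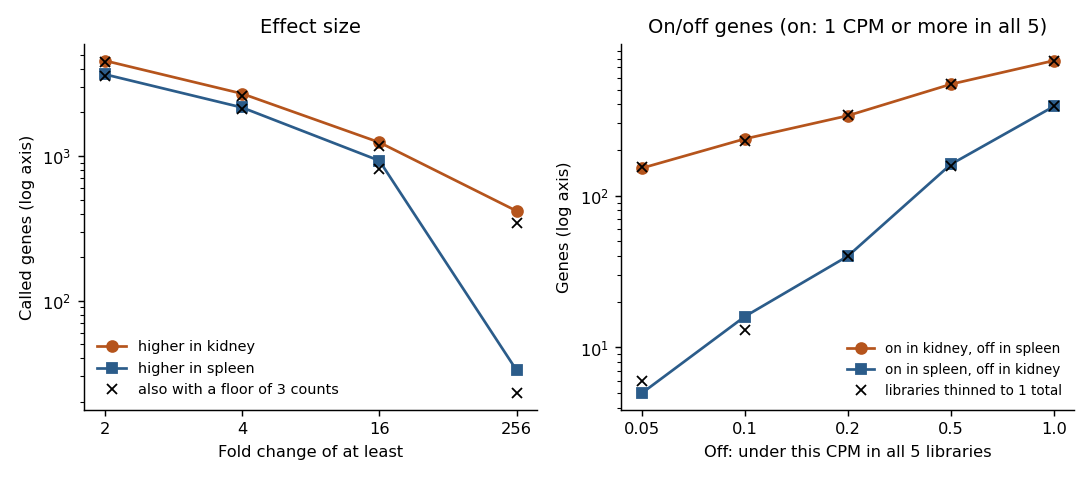
Left, the number of called genes (log axis) that differ by at least the fold on the horizontal axis, by direction, with crosses for those still past it when counts under 3 per tissue are set to 3. Right, the number of on/off genes (log axis) against the CPM under which a gene counts as off, with crosses for libraries thinned to 1 common total; the kidney line is above the spleen line throughout, with 237 against 16 genes at 0.1 CPM and 777 against 388 at 1 CPM.

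A single library often kept a gene from being on/off. Among 14986 genes on in all 5 kidneys, 83 were off in all spleens but 1, and the exception was the spleen of M4091 for 23, of F6849 for 22, of M4046 for 16, of F9150 for 14 and of M4075 for 8. Among 14590 genes on in all 5 spleens, 19 were off in all kidneys but 1, and for 12 of them the exception was the kidney of M4046. The excepted library was usually only just above the limit, at a median of 0.15 CPM in both directions. The kidney of M4046 was run in lane 5 with the spleen of F9150, and the kidney of M4091, which was the exception for 0 of the 19 genes, in lane 6 with the spleen of M4046. The part of a shared lane in these low counts was not tested.

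The separation of the on/off genes is set by their definition, and the adjusted p-values given for them add nothing to it. Those with the highest levels are described next. Monax4B004469 had 739 CPM in the kidney of F6849, 774 in F9150, 795 in M4046, 904 in M4075 and 739 in M4091, and the 5 spleens had 4 to 6 counts each, or 0.03 to 0.09 CPM. The kidneys were thus alike, and all lay far above any spleen. Its log2 fold change was 13.57 ± 0.24 (standard error; edgeR, adjusted p = 6.10e-06). Monax4B043008 reached 1040 CPM in the kidney of F6849 and 644 to 799 CPM in the other kidneys, while the spleens of F6849 and M4075 had 0 counts and the other 3 had 4 to 6. Its log2 fold change was 14.32 (standard error 0.76, adjusted p = 4.37e-05, edgeR).

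On the spleen side, Monax4B025938 was measured at 68.5 CPM in the spleen of F6849, 63.6 in F9150, 39.9 in M4046, 52.7 in M4075 and 29.3 in M4091, and it had 0 counts in all 5 kidneys. Its level in spleen was at least 7626-fold higher, the limit being 3 counts over the 5 kidneys (adjusted p = 0.000796, edgeR). Both reads of a pair seem to have been counted, since 85.5% to 86.0% of the counts above 0 in these libraries are even, and with 3 read pairs as the limit the bound would be 2 times lower. Monax4B035130 had 126 CPM in the spleen of F6849 and 82.3 in that of F9150, but 4.55 in M4046, 20.8 in M4075 and 8.70 in M4091, with at most 4 counts in any kidney. Both female spleens lay above all 3 male spleens for this gene, and its log2 fold change over the animals was -10.34 (standard error 0.98, adjusted p = 0.000278, edgeR). With so few animals such an order can arise by chance. The gene did not pass edgeR's test for a change that depends on sex. With 2 females and 3 males that test has little power, so the failure decides nothing about this gene.

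Graded genes had at least 10 counts in all 10 libraries. Within each direction the fitted log2 fold changes of the graded genes named here were smaller in size than those of the leading on/off genes. The counts required in the lower tissue limit the ratio, so this order is in part set by the rule. By the smallest log2 ratio within an animal the order failed for Monax4B035130. Its smallest was -5.79, in M4046, against -6.96 for the graded gene Monax4B022494 and -6.18 for Monax4B011309. Monax4B008623 had 3710 CPM in the kidney of F6849, 4018 in F9150, 1697 in M4046, 2194 in M4075 and 1301 in M4091, against 0.28, 0.75, 0.50, 0.40 and 0.97 CPM in the spleens of the same animals. The smallest log2 ratio within an animal was 10.36, in M4091, and the fitted value was 12.11 (standard error 0.67, adjusted p = 4.90e-05, edgeR). Monax4B021728 had 4574, 3457, 2738, 2088 and 2500 CPM in the kidneys, in the same order, and 0.24, 0.87, 0.55, 0.70 and 1.90 CPM in the spleens. Its kidney levels differed less between the animals than its spleen levels, and the log2 ratio within an animal ran from 10.34 in M4091 to 14.07 in F6849 (adjusted p = 7.18e-05, edgeR).

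In the other direction the graded differences were smaller again. Monax4B022494 had 115 CPM in the spleen of F6849, 217 in F9150, 53.5 in M4046, 144 in M4075 and 39.2 in M4091, while the kidneys had 0.22 to 0.40 CPM. Its spleens varied more than its kidneys, and its log2 fold change was -8.15 (standard error 0.39, adjusted p = 3.44e-05, edgeR). Monax4B011309 had 21.7 and 26.5 CPM in the spleens of F6849 and F9150 and 42.8, 48.6 and 43.2 CPM in those of M4046, M4075 and M4091, with 0.13 to 0.56 CPM in the kidneys. The male spleens lay above the female ones for this gene, the reverse of Monax4B035130, and its log2 fold change was -6.84 (standard error 0.26, adjusted p = 2.21e-05, edgeR). This gene did not pass edgeR's test for a change that depends on sex either. That test has little power and compares the ratio of kidney to spleen, not the level in spleen, so it cannot decide on this order. The log2 ratios of females and males overlapped, with -7.12 for F6849, -6.40 for F9150, -6.18 for M4046, -6.69 for M4075 and -7.37 for M4091.

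**Figure D3:**
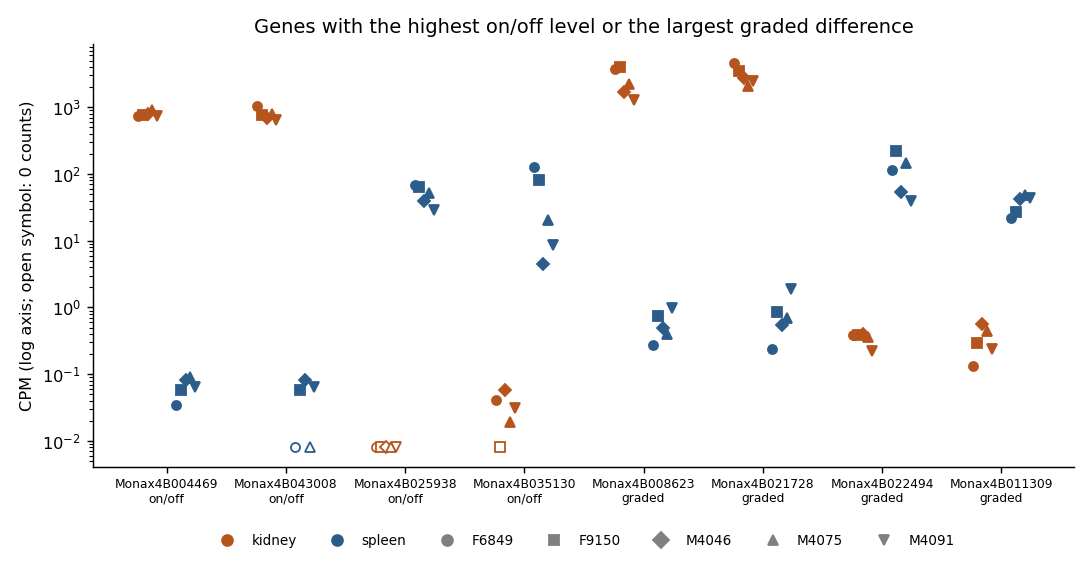
CPM on a log axis of 4 on/off and 4 graded genes in each library, with kidney in brown, spleen in blue and a symbol per animal; open symbols stand for 0 counts. The 8 genes were chosen for a wide difference, so the lack of overlap between kidney and spleen follows from the choice. The spleen levels of Monax4B035130 run from 4.55 to 126 CPM.

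The abundance classes were similar in number between the tissues but not in what they held. By its mean in a tissue each gene was put in a class: 0 counts, under 0.1, 0.1 to 1, 1 to 10, 10 to 100, 100 to 1000, or 1000 CPM and over. The class of 10 to 100 CPM was the largest of those with counts, with 8525 genes in kidney and 8336 in spleen, and 5917 and 6193 genes had 0 counts. Between 100 and 1000 CPM lay 2398 genes in kidney and 2276 in spleen, which held 53.0% ± 0.730 of the kidney counts and 47.7% ± 0.642 of the spleen counts (SD, n = 5 each). The 56 genes of 1000 CPM and over in kidney held 11.1% ± 0.857 of the counts and the 70 such genes in spleen 17.1% ± 1.22 (SD, n = 5 each). The 3966 genes of kidney and 4028 of spleen between 0.1 and 1 CPM held only 0.159% and 0.164%.

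Of 26191 genes with a count in either tissue, 15073 (57.6%) were in the same class in both. Kidney was 1 class higher for 4663 genes and spleen for 4836, an almost even split. A step of at least 2 classes was found for 1074 genes in favour of kidney and 545 in favour of spleen. Only 18 genes reached 1000 CPM in both tissues. Of the 56 genes at this level in kidney, 24 had less than 100 CPM in spleen. The share of genes called rose with abundance over the 10 libraries, from 45.6% between 0.1 and 1 CPM to 73.4% between 100 and 1000 CPM and 87.3% of the 63 genes above. The size of the differences followed no such order: the median absolute log2 fold change was 1.19 in the lowest of these classes, 1.08 between 1 and 10 CPM, 0.70 between 10 and 100 CPM, 0.77 between 100 and 1000 CPM and 1.22 in the 63 genes above. Between 0.1 and 1 CPM the median SD of log2 CPM between animals was 0.62 in kidney and 0.70 in spleen. Between 100 and 1000 CPM it was 0.19 and 0.23. A difference of a given size is easier to call at a smaller SD, so the rise in calls does not show that abundant genes differ more often.

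**Figure D4:**
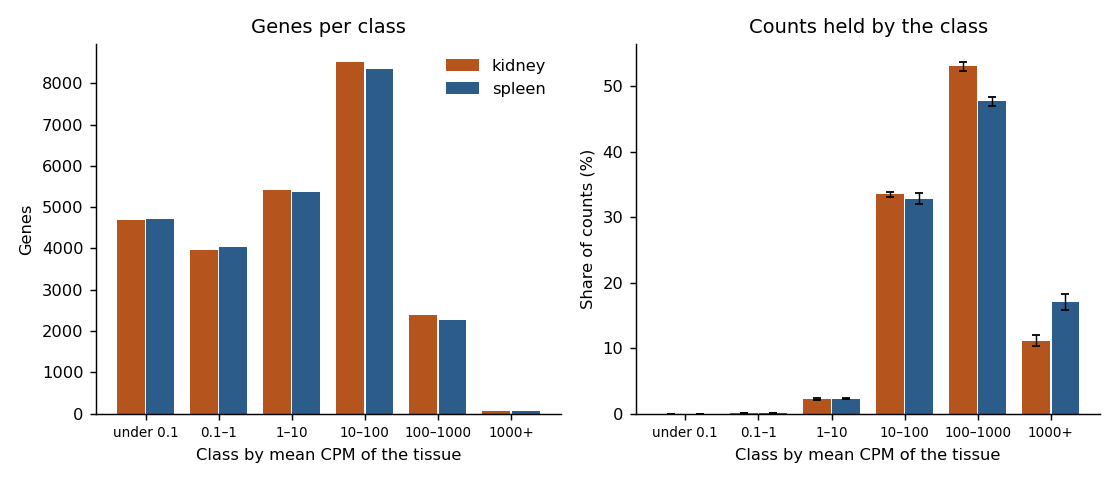
Left, the number of genes in each class of mean CPM; right, the share of a library's counts held by the class, as the mean of the 5 libraries of a tissue with the SD as error bar. Kidney, in brown, has the larger share between 100 and 1000 CPM (53.0% against 47.7%) and spleen, in blue, at 1000 CPM and over (17.1% against 11.1%).

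Spleen libraries were more concentrated in a few genes than kidney libraries. In kidney 15.3% ± 0.858 of a library's counts came from its 100 most abundant genes, and in spleen 20.1% ± 1.27 (SD, n = 5 each). Spleen was higher in 5 of 5 animals, kidney less spleen being -6.70 to -2.64 percentage points. A two-sided exact permutation test over the 32 sign changes of the differences within animals gave p = 0.063, the smallest that 5 animals allow, so that no such test could pass 0.05 (0.0804 after Benjamini-Hochberg adjustment over 9 measures). Between libraries without the pairing the exact permutation test gave p = 0.00794, adjusted 0.0143. This is the smallest p that 5 libraries against 5 allow, and the test ignores that the libraries come in pairs. In kidney 1288 ± 34.4 genes (SD, n = 5) were needed for 50% of the counts and in spleen 1115 ± 67.2, again with kidney higher in all 5 animals. The number of genes at 100 CPM or more was 2460 ± 39.5 in kidney and 2300 ± 88.8 in spleen (SD, n = 5 each), higher in kidney in all 5 animals by 35 to 215 (exact permutation test, p = 0.063, adjusted 0.0804). At 1000 CPM or more the order was the reverse, with 55.2 ± 5.85 genes in kidney and 71.6 ± 6.58 in spleen, spleen being higher in all 5 animals.

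The most abundant genes were not restricted to a tissue in the same way. Of the 100 genes with the highest mean in each tissue, 34 were in both lists. Among the 100 of kidney, 68 were called higher in kidney and 22 higher in spleen, against 33.1% and 30.8% of all genes tested, and 16 had a mean under 1 CPM in spleen. Among the 100 of spleen, 87 were called higher in spleen, and 0 had a mean under 1 CPM in kidney. The choice of the lists by level in 1 tissue favours calls towards that tissue, so the counts are descriptions. On average the kidney list differed more, with a median log2 fold change of 1.91, against -1.14 for the spleen list.

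The gene with the highest mean in kidney was abundant in both tissues. Monax4B042242 had 9002, 12124, 9994, 10808 and 8921 CPM in the kidneys of F6849, F9150, M4046, M4075 and M4091, and 11249, 15431, 14570, 15982 and 14810 CPM in their spleens. It was higher in spleen in 5 of 5 animals although the groups overlapped, with a log2 fold change of -0.50 (standard error 0.16, adjusted p = 0.0325, edgeR). The adjusted p ran up to 0.288 in the alternative fits and was above 0.05 in 6 of 14, including those without F9150, M4046, M4075 or M4091. In spleen the highest mean was that of Monax4B009745, with 33095, 7785, 21086, 19560 and 8455 CPM in the same order of animals, against 746, 65.4, 402, 446 and 30.1 CPM in the kidneys. Monax4B042242 was the most abundant gene of every kidney except that of M4091. Monax4B009745 was the most abundant gene only in the spleens of F6849 and M4046. Its level varied widely in both tissues, and F6849 was highest in both and M4091 lowest in kidney. Its log2 fold change was -6.30 (standard error 0.56, adjusted p = 0.000223, edgeR), and every spleen lay above every kidney.

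The spread between animals was compared next, as SD of log2 CPM over the 5 libraries of a tissue. The median SD was 0.30 in kidney and 0.36 in spleen, and the SD was larger in spleen for 12099 genes (60.7%) and larger in kidney for 7819. The highest and lowest kidney differed by less than 2-fold for 12552 genes (63.0%) and the highest and lowest spleen for 10878 (54.6%). An SD over 1 was found for 2011 genes in kidney and 2311 in spleen, and 836 genes were in both lists, 41.6% of the kidney list and 36.2% of the spleen list. The biological coefficient of variation, estimated by edgeR in each tissue alone, was 0.379 in kidney and 0.416 in spleen. In the fit of both tissues it was 0.397 without and 0.344 with the animal as a block.

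The larger spread of spleen held in most abundance classes. The median SD in kidney and spleen was 0.62 and 0.70 for genes of 0.1 to 1 CPM, 0.41 and 0.49 for 1 to 10 CPM, 0.21 and 0.27 for 10 to 100 CPM, and 0.19 and 0.23 for 100 to 1000 CPM. Among the 63 genes of 1000 CPM and over the order was the reverse, 0.33 in kidney and 0.29 in spleen. Genes called higher in kidney had a larger SD in spleen in 65.3% of cases, those called higher in spleen in 53.9% and those not called in 62.4%. The SD was larger at low levels, and called genes differ in level between the tissues, so these shares are not matched for level.

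Whether spleen varies more than kidney was not settled by 5 animals. The median absolute deviation of a library's genes from the tissue mean was 0.178, 0.224, 0.170, 0.178 and 0.230 (log2 CPM) in the kidneys of F6849, F9150, M4046, M4075 and M4091, and 0.300, 0.217, 0.198, 0.197 and 0.272 in their spleens. Spleen was higher in 4 of 5 animals, kidney less spleen being -0.0410 on average, and the two-sided exact permutation test within animals gave p = 0.125. Without F6849 the mean difference was -0.0118, and with each other animal left out it was -0.0566 to -0.0430. The spleen of F6849, which was the farthest of the 5 spleens from the mean for 6556 genes, is also the deepest library, and with all libraries thinned to the smallest total its deviation was 0.299. In kidney, M4091 was the farthest for 5783 genes and F9150 for 5145.

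**Figure D5:**
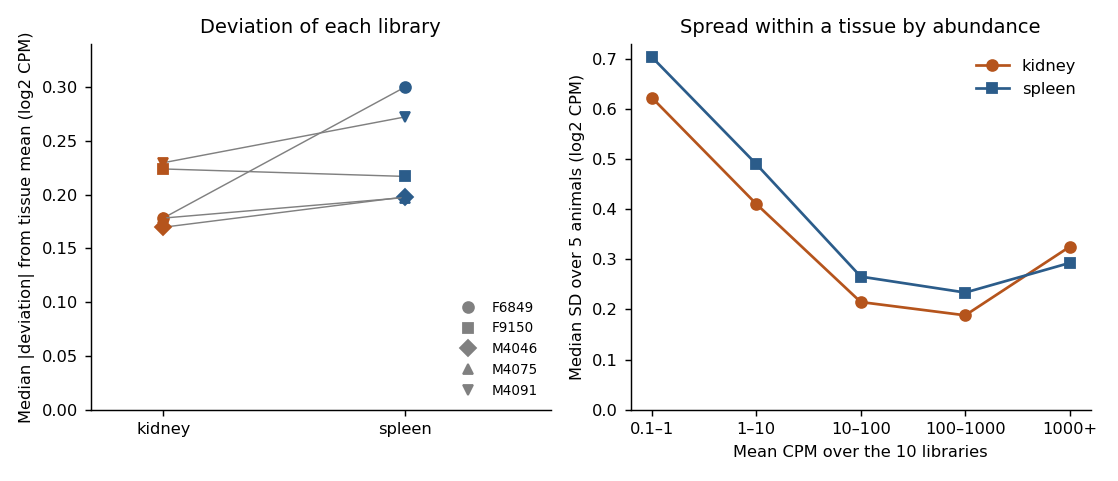
Left, the median absolute deviation of each library from its tissue mean (log2 CPM), with a line joining kidney and spleen of an animal. Right, the median SD of log2 CPM over the 5 animals by class of mean CPM, which falls from 0.62 in kidney and 0.70 in spleen at 0.1 to 1 CPM to 0.19 and 0.23 at 100 to 1000 CPM.

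The difference between the tissues was of similar width in each animal. A ratio of at least 2-fold was found for 9096 genes in F6849, 8930 in F9150, 9404 in M4046, 9128 in M4075 and 10318 in M4091. The median absolute log2 ratio was 0.87, 0.85, 0.92, 0.88 and 1.05 in the same order, so M4091 had the widest differences. Its 2 libraries are the shallowest of their tissues. With libraries thinned to 1 total M4091 had 10104 genes past 2-fold and the other animals 8764 to 9215. Across genes, which are not independent replicates, the log2 ratios of an animal had a Pearson's r of 0.913 to 0.959 with the mean of the other animals, and kidney and spleen of 1 animal one of 0.663 to 0.731.

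Females and males were set apart in 1 further fit, which tested whether the change from spleen to kidney depends on sex. Of 19918 genes, 1 (0.00502%) passed a false discovery rate of 0.05 in edgeR's quasi-likelihood test, and 3744 had an unadjusted p under 0.05. If no gene depended on sex, a share of about 0.05 of the genes would on average have such a p. With 2 females and 3 males the test has little power, so the single call does not measure how many genes depend on sex. DESeq2 called 2411 genes for the same question, so the number of genes that depend on sex is not settled by these libraries. Monax4B001679 had 3.45 and 1.76 CPM in the kidneys of the females F6849 and F9150 and 3.38, 3.75 and 3.37 CPM in those of the males M4046, M4075 and M4091. In spleen it had 406 and 176 CPM in the females and 15.1, 19.5 and 12.4 CPM in the males. The female spleens thus lay above all male spleens, while kidney was low in both sexes. The log2 ratio of kidney to spleen was -6.87 and -6.62 in the females and between -2.37 and -1.88 in males, a difference, male minus female, of 4.62 (standard error 0.21, adjusted p = 0.0471, edgeR).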

How the data were processed

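Per the study's methods, reads were mapped by gem-tools (rna-mapper) and assigned to Monax4B genes by gemtools, and the authors deposited read counts per gene, whole numbers without normalization. Total counts are given in the report. The members, gene lists and tests were chosen with earlier results of these data known. Tests used edgeR 4.0.16 under R 4.3.3 (filterByExpr, TMM factors, robust quasi-likelihood fit, glmTreat against 2-fold, false discovery rate 0.05 by Benjamini-Hochberg); levels were computed in Python 3.11.15 and plotted with matplotlib 3.10.9. Groups and animals came from the labels. The individual label pairs the libraries; after removal of the tissue means, kidney and spleen of 1 animal correlated at 0.121 to 0.323, and those of different animals at -0.134 to 0.0755. The study states no block. Log2 CPM used a prior count of 2. Values per library were compared with two-sided exact permutation tests. Shares of a library carry a 95% Wilson interval within 0.0127 percentage points (0.0180 with read pairs as the unit), which covers counting error only, as do all bounds at 3 counts. Named genes are at most 2 per direction: the on/off genes of highest mean, the graded genes (at least 10 counts in all libraries, a mean of at least 10 CPM, called) with the largest smallest ratio within an animal, the most abundant gene of each tissue, and the gene called by sex. Lanes were read from the table's column names. Alternatives were DESeq2 1.42.0, limma-voom (limma 3.58.1), robust observation weights, other factors, filters, limits and blocks, and each animal left out. The scripts were tested on simulated data.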

Additional observations from a re-analysis of the deposited data

Results flagged for a closer look

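Of 44 sets of 5 values, 1 per library of a tissue, 3 had an extreme value whose distance to its neighbour took up most of the set's range, and about 1 set in 20 would do so by chance. The deepest library, the spleen of F6849, had 123267969 counts, while the remaining spleens had 59487004 to 69512327. The spleen of M4091 had 15648 genes at 1 CPM or more, against 15833 to 15868 in the other spleens, and it is the shallowest of the 10 libraries. In the kidney of M4091 the 10 most abundant genes held 6.48% of the counts, against 4.39% to 4.86% in the other kidneys. The difference between males and females in the kidney to spleen change of Monax4B001679, 4.62 on the log2 scale, was past the threshold of edgeR's quasi-likelihood test.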

How the results depend on the processing

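With the animal as a replicate block 12722 genes were called, and without it 12901, of which 12216 were the same genes. The block changed no call of the on/off, graded and most abundant genes named in the results. Monax4B001679 and Monax4B026245 were not compared in this way. The numbers of genes called and of genes changed over 2-fold stayed within 1.5 times under all alternatives run, the lowest being 9992 and 4941 in a fit of liver, kidney and spleen together with the sequencing lane as the block in place of the animal. On/off genes numbered 87 for kidney and 2 for spleen with on at 10 CPM, and 60 and 2 with off at 0 counts; both pairs of spleen genes are Monax4B025938 and Monax4B026245, the second chosen after its values were seen. With off under 0.2, 0.5 and 1 CPM, limits added after seeing the data, the spleen numbers were 40, 161 and 388, and the kidney numbers under 0.5 and 1 CPM 543 and 777. With each animal left out, which can only keep or raise the number, the spleen number was 20 to 32. Without the pairing, the differences of 159.6 genes at 100 CPM and of -4.74 percentage points in the share of the 100 most abundant genes passed 0.05 (exact permutation test, p = 0.0238 and 0.00794). That test ignores that the libraries come in pairs, and the second value is the smallest it can give. At 1000 CPM in place of 100 the difference, kidney less spleen, was -16.4 genes. For the dependence on sex DESeq2 called 2411 genes against 1; the cause was not tested. Depth limits the on/off calls, since 0.1 CPM is a few counts.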

Other observations

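The on/off genes were looked up in the 10 libraries of the other tissues, with TMM factors fitted over all 20 libraries. Of the 237 genes on in kidney and off in spleen, 149 reached 1 CPM in at least 1 of these libraries and 38 were under 0.1 CPM in all of them. In liver, 60 were at 1 CPM or more in all 6 libraries and 88 under 0.1 CPM in all 6. In the single libraries, 69 of the 237 were at 1 CPM or more in pancreas, 63 in lung, 26 in thymus and 15 in heart. Of the 16 genes on in spleen and off in kidney, 8 reached 1 CPM in at least 1 of the 10 libraries. Monax4B004469 had at most 0.13 CPM in any of them, whereas Monax4B035130 had 6.73 to 23.6 CPM in the 6 livers. Monax4B025938 had 4.01 CPM in pancreas and at most 0.40 CPM in the other 9 libraries. Both graded kidney genes were high in liver, Monax4B008623 at 1275 to 1583 CPM and Monax4B021728 at 994 to 6666 CPM, and Monax4B021728 also had 6106 CPM in the thymus library and 1020 CPM in lung.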
